A study of Mus musculus with 12 samples.

Results

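The genes described are the 10 genes for thrombospondins, tenascins and other matricellular proteins on the array: Thbs1, Thbs2, Thbs3, Thbs4, Comp, Tnc, Tnxb, Postn, Fn1 and Spp1. They were taken as the genes whose symbol stood in the gene name of a probe that is not a control, which gave 19 of 56605 probes. All 19 probes passed the filter on dim signal, so all 10 genes are among the 27351 genes tested. The 12 tumour samples are labelled as from female C57BL/6 mice with an age of 8 weeks, 6 samples from mice given vehicle and 6 from mice given FAKi, an inhibitor of focal adhesion kinase, at 50 mg/kg by gavage for 14 days. Orthotopic tumours named KP are given for all 12. The alleles and cells behind that name, the inhibitor's chemical name and whether several tumours share a cell clone are not given in the sources used here. Nothing in the labels says more about the replicates than their numbers, not even that each is another mouse, so the p-values measure the spread between these samples. RNA was taken from whole tumour tissue, in which fewer cells of a type and less RNA per cell cannot be told apart.

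Matricellular proteins are secreted into the extracellular matrix, where they act less as a scaffold than as signals: they bind integrins and other receptors, growth factors and proteases. Thrombospondins fall into trimers (Thbs1 and Thbs2), which inhibit angiogenesis and bind the receptors CD36 and CD47, and pentamers (Thbs3, Thbs4 and Comp), known mainly from cartilage, tendon and muscle. Tenascin-C (Tnc) and periostin (Postn) are deposited by activated fibroblasts and pericytes in wounds and in the dense stroma of pancreatic cancers. Fibronectin (Fn1) is the classical ligand whose binding to integrins activates focal adhesion kinase, and osteopontin (Spp1) is an integrin and CD44 ligand made by macrophages and tumour cells. Tenascin-X (Tnxb) is a collagen-associated tenascin of loose connective tissue.

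The array reads each of these genes through probes of 60 bases, several of which lie across the joint of neighbouring exons. Those are shown because Fn1 and Tnc were each read by several probes, and because Thbs2 and Comp were read by a junction probe alone. Positions are in mm9 and enclose the intron between the joined exons; each sequence is as deposited, 5′ to 3′, and each has at least 1 reading frame without a stop codon.
Thbs2, chr17:14804526-14805789, minus strand: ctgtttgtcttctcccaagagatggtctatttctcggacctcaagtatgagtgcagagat
Comp, chr8:72905692-72905825, plus strand: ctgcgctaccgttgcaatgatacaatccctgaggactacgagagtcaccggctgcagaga
Fn1, junction probe near the 3′ end, chr1:71637422-71639659, minus strand: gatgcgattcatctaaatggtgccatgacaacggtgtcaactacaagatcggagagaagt
Fn1, junction probe toward the 5′ end, chr1:71694694-71695800, minus strand: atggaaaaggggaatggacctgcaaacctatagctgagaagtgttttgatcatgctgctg
Tnc, upstream probe, chr4:63674248-63675011, minus strand: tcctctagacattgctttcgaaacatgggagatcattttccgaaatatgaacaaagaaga
The brightest probes of the other genes lie within an unbroken stretch, of 46 bases for Tnc and 60 for the rest. Why the Tnc stretch is shorter was not looked into. They are at chr2:117952585-117952644 for Thbs1, chr3:89030522-89030581 for Thbs3, chr13:93521565-93521624 for Thbs4 and chr4:63620819-63620864 for Tnc. The remaining probes are at chr17:34856502-34856561 for Tnxb, chr3:54194483-54194542 for Postn, chr1:71632116-71632175 for Fn1 and chr5:104869788-104869847 for Spp1. No annotation of that build was used, so their exons are not named.

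Values are log2 processed signals minus the 75th percentile of the same array, so 0 is the signal that 3 in 4 probes of the array fall below. A gene's level can be compared between tumours but not with another gene's level. Every gene is given by its brightest probe, with n = 6 tumours in each group. The 75th percentile itself ran from 11.82 to 13.88 on the log2 scale; vehicle 6 was the dimmest array, at 11.82, and the next was at 12.82. Between 66.6% and 76.1% of spots per array were well above background. The 8 ductal markers, the 8 fibroblast markers and the 8 macrophage markers were all well above background on all 12 arrays, and 5 of 6 acinar markers were measured. Of the 6 skeletal muscle markers, 4 were well above background on all 12 arrays, with Mb on 6 and Myl1 on 10. Of the 6 adipocyte markers it was 5, with Adipoq on 9. The endothelial and platelet lists also had 5 of 6 each, with Tek on 11 and Gp9 on 9.

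Between FAKi and vehicle tumours, 0 of the 10 genes passed an adjusted p of 0.05 in limma, and in this comparison 0% of all 27351 genes passed in either direction. At an unadjusted p under 0.05, 1 gene, Thbs1, was lower with FAKi and 0 were higher. Over all genes 4.79% reached that p, 2.08% lower and 2.72% higher, so 1 in 10 is near the background. The FAKi mean was below the vehicle mean for 5 of the 10 genes, against 39.5% of all genes, and the median difference was -0.02 against 0.08 over all genes. The groups overlapped for all 10 genes, while 0.239% of all genes with a value on every array had groups that did not, and in 0.121% the FAKi tumours were the lower ones. Among the 19 probes 1, that of Thbs1, had an unadjusted p under 0.05, against 4.84% of all 40457 probes, 1.99% lower. The adjusted p was 0.999 for each of the 10 genes, and the smallest over all genes was 0.353.

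**Figure D1:**
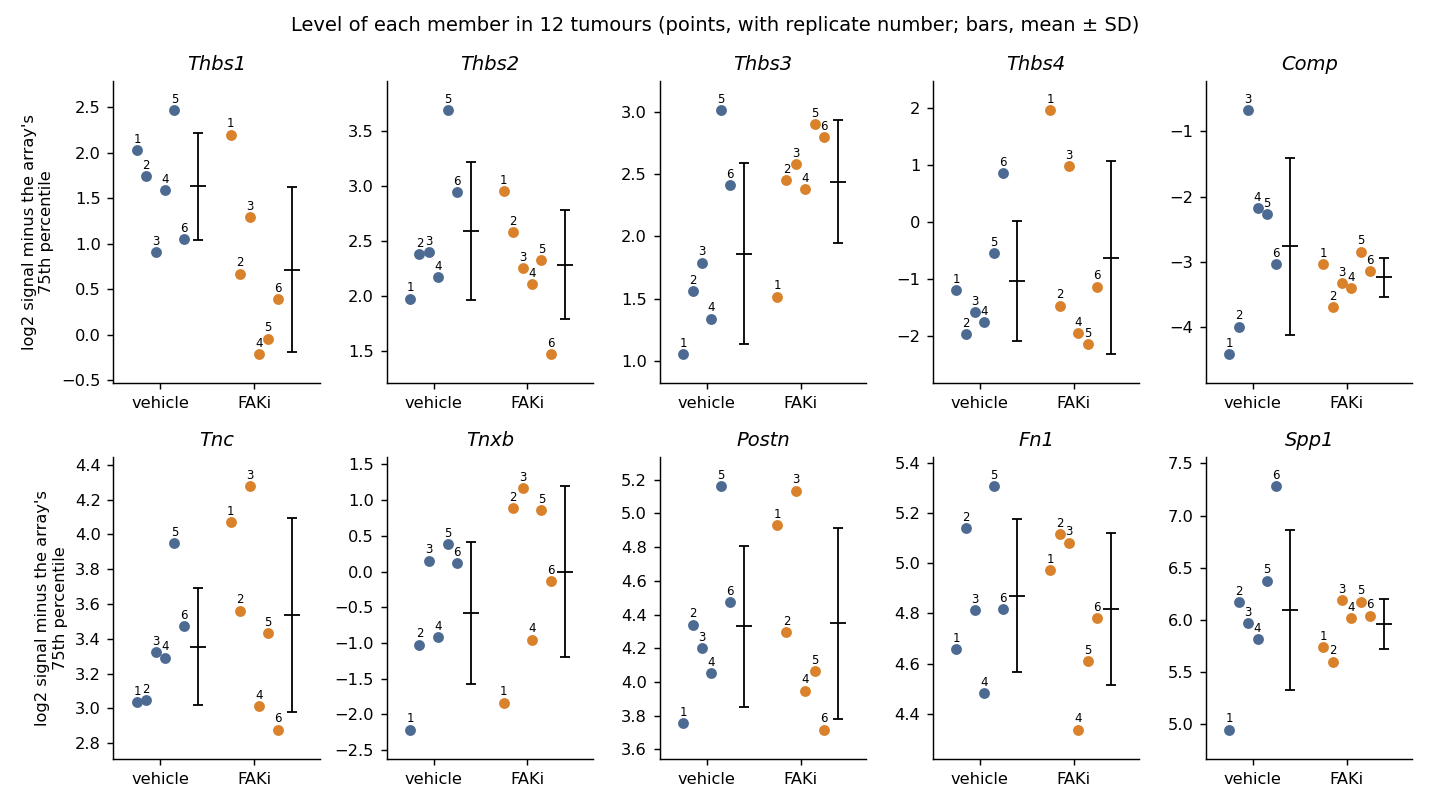
Level of each of the 10 genes in the 12 tumours: log2 signal minus the array's 75th percentile on the y axis (each panel has its own range), vehicle tumours in blue and FAKi tumours in orange, numbered by replicate, with the mean ± SD of each group as a bar. The groups overlap in every panel; Thbs1 is lower in 5 of 6 FAKi tumours than the vehicle mean, and Comp spans 3.73 log2 units, all of it among vehicle tumours.

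Thbs1, the trimeric thrombospondin that activates latent TGF-beta and inhibits angiogenesis, had the largest difference of the 10. In vehicle tumours its lowest, median and highest levels were 0.91, 1.67 and 2.47, and in FAKi tumours they were -0.21, 0.53 and 2.20. FAKi 1, at 2.20, lay above 5 of the 6 vehicle tumours, while FAKi 2, 4, 5 and 6, between -0.21 and 0.67, lay below all of them. The means were 1.63 ± 0.59 and 0.72 ± 0.90 (SD), a difference of -0.92 (SE 0.41, 95% interval -1.80 to -0.03), or 0.53-fold. Limma gave an unadjusted p of 0.043 and an adjusted p of 0.999. A second Thbs1 probe, at chr2:117950962-117951021, gave -0.55 (SE 0.49), with its lowest level in FAKi 6, at -2.48, and its highest in FAKi 1, at 1.09. The probes correlated over the 12 tumours at r = 0.692, and with all probes of a gene averaged the Thbs1 difference was -0.73 and its unadjusted p in limma 0.099. With slide as a fixed block the difference was -0.47. It was -1.73 within the 3 arrays of slide 1 and 0.80, the other way, within the 3 arrays of slide 4. The blocked value draws on these slides alone, since no other slide held both groups. FAKi 2, 4 and 6 were on slides without a vehicle array. The p under 0.05 also went when any of vehicle 1, 2, 4 or 5 or FAKi 2, 4, 5 or 6 was left out, with a range of -1.21 to -0.73 for the difference over all 12 omissions.

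Thbs1 was also set beside the markers of exocrine tissue. The mean of the 5 measured acinar pancreas markers, each centred on its mean over the tumours, ran from -0.90 to 0.13 in vehicle and from -0.37 to 0.77 in FAKi tumours, and all 5 markers had a higher FAKi mean, none past the test. The summed signal of those markers, on a linear scale where 1 is the array's 75th percentile, was 1.69 to 6.96 in vehicle and 3.31 to 9.17 in FAKi tumours. Across the 12 tumours Thbs1 ran against that score at r = -0.774 (Spearman rho -0.741, permutation p 0.003 and 0.008, adjusted p 0.082 for r over 165 relations). Within groups r was -0.386 for vehicle (exact permutation p = 0.424) and -0.916 for FAKi (exact permutation p = 0.013). After quantile normalisation r was -0.790, with an adjusted permutation p of 0.0499. The part of exocrine tissue in the difference between the groups was not tested.

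Thbs2, the other trimeric thrombospondin, was also lower on average with FAKi, by less than its error. Its lowest, median and highest levels were 1.98, 2.39 and 3.69 in vehicle and 1.47, 2.29 and 2.96 in FAKi tumours. Vehicle 5 stood above all others and FAKi 6 below all others, with the rest of both groups between them. The means were 2.60 ± 0.63 and 2.28 ± 0.50 (SD), a difference of -0.31 (SE 0.32, 95% interval -1.01 to 0.38), and 1 of 6 FAKi tumours lay above the vehicle mean. The difference was -0.092 without vehicle 5 and -0.15 without FAKi 6.

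Among the pentameric thrombospondins, Thbs3 was higher on average with FAKi while Thbs4 and Comp, with Tnxb, had the 3 widest intervals of the 10 genes. Thbs3 had lowest, median and highest levels of 1.05, 1.67 and 3.01 in vehicle and 1.52, 2.52 and 2.90 in FAKi tumours. In 5 of 6 FAKi tumours it lay above the vehicle mean, with FAKi 1 as the exception, but vehicle 5 had the highest level of all. The means were 1.86 ± 0.73 and 2.44 ± 0.49 (SD), a difference of 0.58 (SE 0.35, 95% interval -0.17 to 1.32), and its second probe gave 0.57 (SE 0.34) with r = 0.900 between the probes. With slide as a fixed block the Thbs3 difference was 0.02. It was 0.50 within slide 1 and -0.47 within slide 4, the only slides that the blocked value draws on. Its unadjusted p in limma, 0.119, was under 0.05 with array weights (difference 0.86, p 0.006), without vehicle 5 (0.81, p 0.021) and without FAKi 1 (0.76, p 0.043), with adjusted p of 0.127, 0.996 and 0.757.

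Thbs4, a thrombospondin of muscle, tendon and nerve, had the widest spread, 4.10 log2 units or 17.1-fold over the 12 tumours. Its lowest, median and highest levels were -1.96, -1.39 and 0.86 in vehicle and -2.14, -1.30 and 1.96 in FAKi tumours. FAKi 1 at 1.96, FAKi 3 at 0.98 and vehicle 6 at 0.86 stood above the other 9, all of which lay between -2.14 and -0.54. The means were -1.03 ± 1.05 and -0.62 ± 1.69 (SD), a difference of 0.40 (SE 0.72, 95% interval -1.14 to 1.95), and without FAKi 1 the difference was -0.11. Its within-group SD lay at the 94.7th percentile of all genes tested. The skeletal muscle score was 5.16 in FAKi 3, 2.46 in vehicle 6, 2.25 in vehicle 2 and 1.76 in FAKi 1, and the summed signal of its 6 markers ran from 1.16 to 23.3 in vehicle and from 1.58 to 165 in FAKi tumours. Thbs4 followed that score at r = 0.700 (rho 0.566, permutation p 0.011 and 0.0583, adjusted p 0.107), while vehicle 2, with a high score, had the lowest Thbs4 level of its group. Without FAKi 1 and FAKi 3, the tumours farthest from the Thbs4 median, that r was 0.559. With Tnc and Postn, Thbs4 had r = 0.725 and 0.692 (adjusted permutation p 0.097 and 0.107). Those values were 0.373 and 0.429 without FAKi 1 and FAKi 3. Whether muscle tissue in the sample bears on Thbs4 was not tested.

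Comp, cartilage oligomeric matrix protein, was the most uneven between the groups in spread. Its lowest, median and highest levels were -4.41, -2.65 and -0.68 in vehicle and -3.69, -3.23 and -2.84 in FAKi tumours. Vehicle 3, 4 and 5 were higher than every FAKi tumour, vehicle 1 and 2 were lower than every FAKi tumour, and vehicle 6 was among them. The means were -2.76 ± 1.36 and -3.24 ± 0.30 (SD), a difference of -0.48 (SE 0.51, 95% interval -1.58 to 0.63). The difference was -0.061 without vehicle 3 and -0.81 without vehicle 1. Vehicle 3, 4 and 5 were also the vehicle tumours with the highest adipocyte scores, at 2.73, 3.29 and 1.30, and vehicle 1 had the lowest, at -2.61. The summed signal of the 6 adipocyte markers ran from 2.34 to 68.4 in vehicle and from 3.87 to 21.3 in FAKi tumours. Over the 12 tumours Comp followed the adipocyte score at r = 0.780 and rho 0.832 (permutation p 0.001 for each, adjusted p 0.082 and 0.073), with r = 0.898 in vehicle (exact permutation p = 0.019) and 0.529 in FAKi tumours (exact permutation p = 0.274). After quantile normalisation the same relation had r = 0.782 and an adjusted p of 0.0499 by the permutation test. The tendon and cartilage score, from the 4 of its 6 markers that were measured, did not follow Comp (r = -0.286, rho -0.336, adjusted permutation p 0.621). The part of fat tissue in the Comp levels was not tested.

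Tnc and Postn, matrix proteins of activated stroma, and Tnxb had means within 1 standard error or little more between the groups. Tnc had lowest, median and highest levels of 3.04, 3.31 and 3.95 in vehicle and 2.88, 3.50 and 4.28 in FAKi tumours. FAKi 3 and FAKi 1 were the highest, followed by vehicle 5, and FAKi 6 was the lowest. The means were 3.35 ± 0.34 and 3.54 ± 0.56 (SD), a difference of 0.18 (SE 0.28, 95% interval -0.41 to 0.78). The difference was 0.037 without FAKi 3 and 0.32 without FAKi 6. The upstream Tnc junction probe shown above was well above background on 4 of 6 arrays in each group. It gave 0.46 (SE 1.02). Its r with the brightest Tnc probe was 0.234 (adjusted permutation p 0.462 over 15 probe pairs), a value that includes the 4 arrays on which it was not well above background.

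Postn had lowest, median and highest levels of 3.76, 4.27 and 5.16 in vehicle and 3.72, 4.18 and 5.14 in FAKi tumours. The ranges of the groups were nearly the same, each with an upper end far from its median. The means were 4.33 ± 0.48 and 4.35 ± 0.57 (SD), and the difference of 0.02 (SE 0.30, 95% interval -0.64 to 0.67) was below 0 under quantile normalisation (-0.038), median centring (-0.018) and normexp correction (-0.047). The other 3 Postn probes gave -0.04, 0.09 and 0.05. Those near the brightest probe, within the last part of the gene, followed it at r = 0.881 and 0.970, while the probe at chr3:54188575-54188634 did so at r = 0.653, which became 0.214 without the tumours farthest from the median. The latter probe was far dimmer, with means of -3.86 in vehicle and -3.81 in FAKi tumours.

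Tnxb, by contrast with Tnc, spread over 3.38 log2 units. Its lowest, median and highest levels were -2.21, -0.40 and 0.38 in vehicle and -1.83, 0.36 and 1.17 in FAKi tumours. FAKi 2, 3 and 5 lay above all vehicle tumours and FAKi 1 lay below all vehicle tumours but vehicle 1. The means were -0.58 ± 0.99 and 0.00 ± 1.20 (SD), a difference of 0.58 (SE 0.57, 95% interval -0.64 to 1.81). With slide as a fixed block the difference was -0.40. It was 0.59 within slide 1 and -1.38 within slide 4, the only slides that the blocked value draws on. With array weights the difference was 0.96, and without FAKi 1 it was 0.95.

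Fn1 had the narrowest range of the 10 genes on the scale used here, but not after quantile normalisation, where its range of 1.44 log2 units exceeded those of Tnc (1.29) and Spp1 (0.41). Its lowest, median and highest levels were 4.48, 4.81 and 5.31 in vehicle and 4.34, 4.88 and 5.12 in FAKi tumours. All 12 tumours fell within 0.97 log2 units, and its within-group SD lay at the 8.49th percentile of all genes tested. The means were 4.87 ± 0.31 and 4.82 ± 0.30 (SD), a difference of -0.05 (SE 0.22, 95% interval -0.52 to 0.42). The junction probe near the 3′ end gave 0.05 (SE 0.28), the one toward the 5′ end -0.06 (SE 0.45) and the probe at chr1:71650690-71650749 gave 0.00 (SE 0.36). The brightest Fn1 probe followed the junction probe near the 3′ end at r = 0.795 (adjusted permutation p 0.009) and the one toward the 5′ end at r = 0.341 (adjusted permutation p 0.315), so the order of the tumours differed by probe. The one toward the 5′ end was far dimmer, with means of -3.37 in vehicle and -3.43 in FAKi tumours. After quantile normalisation the difference was -0.205.

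Spp1 lay close to the top of the arrays' scale. Its lowest, median and highest levels were 4.95, 6.07 and 7.28 in vehicle and 5.60, 6.03 and 6.19 in FAKi tumours. The extremes were vehicle 1 and vehicle 6, which were also the brightest and the dimmest array. The means were 6.09 ± 0.76 and 5.96 ± 0.24 (SD), a difference of -0.13 (SE 0.32, 95% interval -0.83 to 0.56). Before scaling, the log2 signal of Spp1 lay between 18.83 and 19.39 in all 12 tumours, a range of 0.56, and no spot of it was marked as saturated. Its place among the signals of an array was between the 98.9th and the 100th percentile. The scaled level ran against the array's 75th percentile at r = -0.933 (rho -0.832, permutation p 0.00019 and 0.00137, adjusted p 0.0019 for r over the 10 genes), and at -0.648 without vehicle 1 and vehicle 6. That percentile is subtracted in the scaled level, so a negative r is partly built in. The permutation p therefore does not test a relation beyond the subtraction, and these values are a description. After quantile normalisation the range over the tumours was 0.41 log2 units, with SDs of 0.07 in vehicle and 0.14 in FAKi tumours, and the difference was -0.14. The spread of Spp1 in the plot of levels thus moves with the scale of the arrays, and how far it reflects the tumours was not tested. Thbs3 also ran against the 75th percentile (r = -0.611, rho -0.727, adjusted permutation p 0.113), and at r = -0.827 without those arrays. The same subtraction enters the values of Thbs3.

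**Figure D2:**
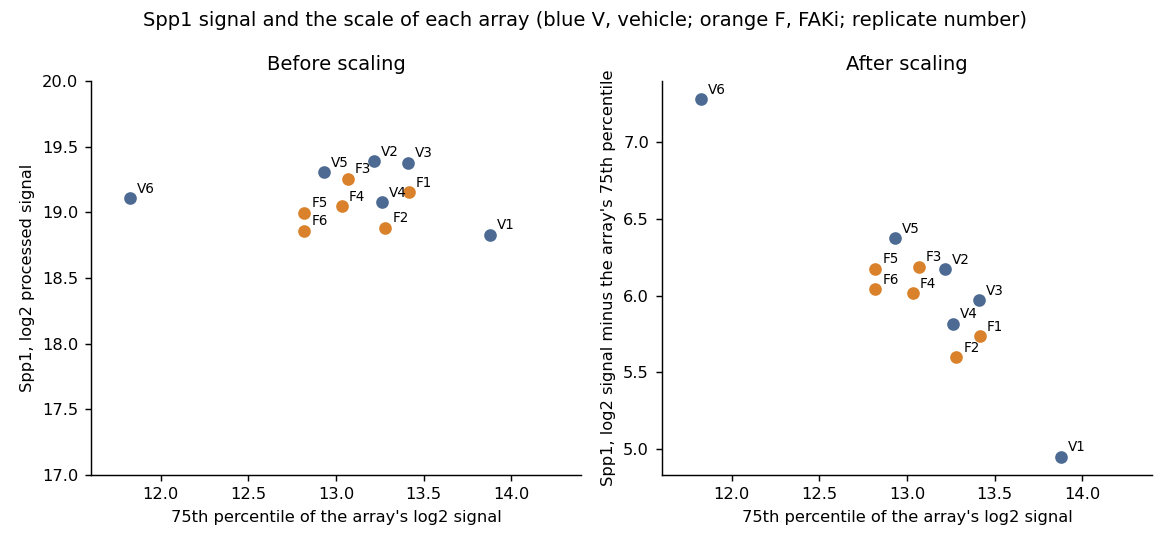
Spp1 against the 75th percentile of the array's log2 signal (x axis), as log2 processed signal before scaling (left) and after subtracting that percentile (right), with vehicle tumours in blue (V) and FAKi tumours in orange (F), numbered by replicate. Before scaling the 12 tumours lie within 0.56 log2 units; after scaling they fall from 7.28 in vehicle 6 to 4.95 in vehicle 1 as the percentile rises.

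**Figure D3:**
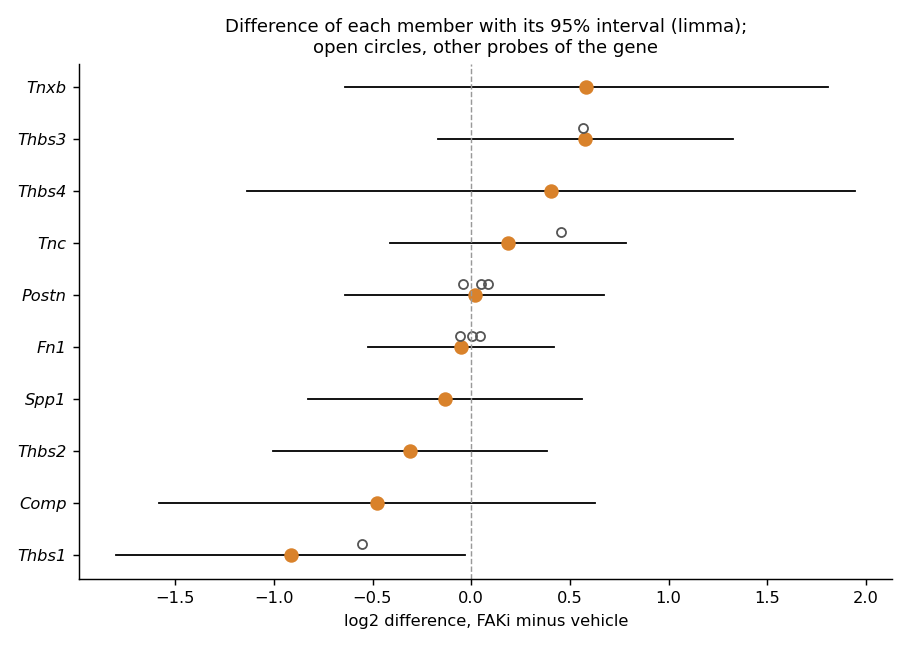
Difference FAKi minus vehicle (x axis, log2) for each gene by its brightest probe (filled circle) with its 95% interval from limma (line), and the differences of the gene's other probes (open circles). The interval of Thbs1, from -1.80 to -0.03, is the only one of the 10 that leaves out 0, and its p does not pass adjustment over all genes.

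The genes were next compared with each other across the tumours, in 45 pairs, together with 120 relations between a gene and a marker score for 12 cell types. Of the 165 relations, 1 passed an adjusted permutation p of 0.05: Tnc with Postn. Both were highest in vehicle 5, FAKi 1 and FAKi 3, where Tnc was at least 3.95 and Postn at least 4.93. In the other 9 tumours Tnc reached 3.56 at most and Postn 4.48 at most. Over all 12 tumours r was 0.919 (permutation p 5e-05, adjusted p 0.008) and Spearman's rho 0.881 (permutation p 0.00033, adjusted p 0.054). It was 0.859 without FAKi 1 and FAKi 3, the tumours farthest from the median of Tnc, and 0.689 over the 9 tumours outside the high ones, a split made after the values were seen. Within groups it was 0.886 in vehicle (exact permutation p = 0.029) and 0.981 in FAKi tumours (exact permutation p = 0.001). No slide holds enough arrays for a value of its own; with each slide's mean removed, r was 0.912 over 11 arrays. Over the 12 omissions of a tumour r stayed between 0.892 and 0.958, but the adjusted permutation p was 0.061 without vehicle 6, 0.087 without FAKi 1, 0.058 without FAKi 2 and 0.091 without FAKi 6.

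**Figure D4:**
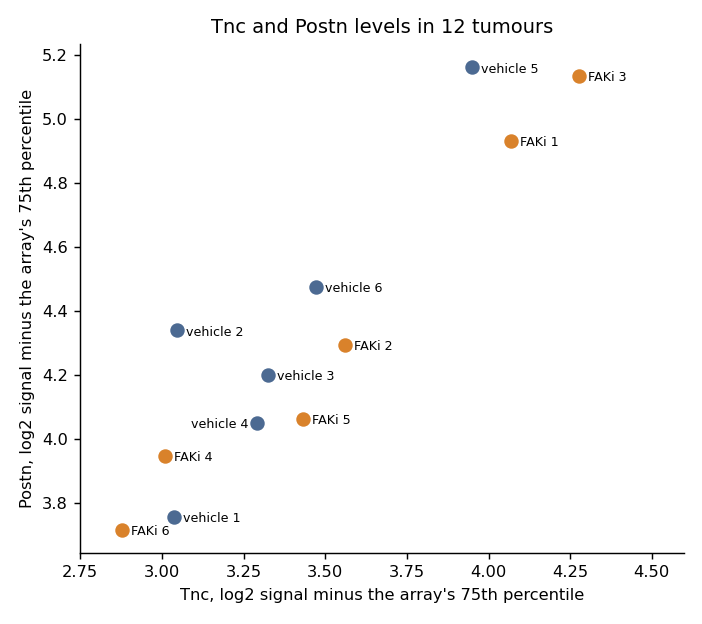
Level of Tnc (x axis) against Postn (y axis), both as log2 signal minus the array's 75th percentile, in 6 vehicle tumours (blue) and 6 FAKi tumours (orange). Vehicle 5, FAKi 1 and FAKi 3 form the upper right, with Tnc of at least 3.95, and tumours of both groups lie along the same slope below them.

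Postn and Tnc also had the fibroblast score among their closest relations. That score, the mean of 8 centred collagen, proteoglycan and receptor genes, differed by -0.01 between the groups and was highest in vehicle 5, at 0.91. Postn followed it at r = 0.787 and Tnc at r = 0.747 (both adjusted permutation p 0.082), and Thbs2 at r = 0.769 (adjusted permutation p 0.082). After quantile normalisation the relations of Postn and of Tnc with the fibroblast score had an adjusted permutation p of 0.0499. The macrophage score had r = 0.708 with Postn, 0.675 with Tnc and 0.754 with Thbs2 (adjusted permutation p 0.097, 0.124 and 0.093). For Postn with the endothelial score r was 0.721 (adjusted permutation p 0.097). Postn followed the smooth muscle and pericyte score at r = 0.720 (adjusted permutation p 0.093), with 0.950 in FAKi tumours (exact permutation p = 0.006) and 0.144 in vehicle tumours (exact permutation p = 0.746). With the skeletal muscle score Postn had r = 0.602 (adjusted permutation p 0.221). That value was 0.882 in FAKi tumours (exact permutation p = 0.033) and 0.110 in vehicle tumours (exact permutation p = 0.858). Thbs2 with Postn had r = 0.766 and rho 0.832, which fell to r = 0.570 without vehicle 5 and FAKi 6. Thbs2 also followed the endothelial score at r = 0.781, a value of 0.407 without those tumours. Vehicle 5, on this scale the highest tumour for Thbs1, Thbs2, Thbs3, Postn and Fn1, had the highest endothelial and macrophage scores, at 1.16 and 1.04, and the lowest ductal score, at -1.06. After quantile normalisation Fn1 was highest in vehicle 1 (18.72, against 18.35 in vehicle 5). Postn was then highest in FAKi 1 (18.26, against 18.23 in vehicle 5). The part of tissue make-up in these relations was not tested.

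Thbs3 with Tnxb had r = 0.794 (rho 0.762, adjusted permutation p 0.082 for r), and at 0.689 without vehicle 1 and vehicle 4. With Thbs1 they had r = -0.460 and r = -0.404 (adjusted permutation p 0.410 and 0.478), and -0.032 and -0.047 with each slide's mean removed. In all, 38 of the 45 pairs had r above 0, with a median of 0.314; the levels share the array's scaling, so these values are a description. Comp had the lowest median r with the others, 0.153, and values between -0.05 and 0.31. With each slide's mean removed, over 11 arrays, r was 0.561 for Thbs3 with Tnxb, 0.689 for Thbs2 with Postn, 0.769 and 0.745 for Postn and Tnc with the fibroblast score, 0.780 for Comp with the adipocyte score, 0.601 for Thbs4 with the skeletal muscle score and -0.895 for Thbs1 with the acinar score.

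**Figure D5:**
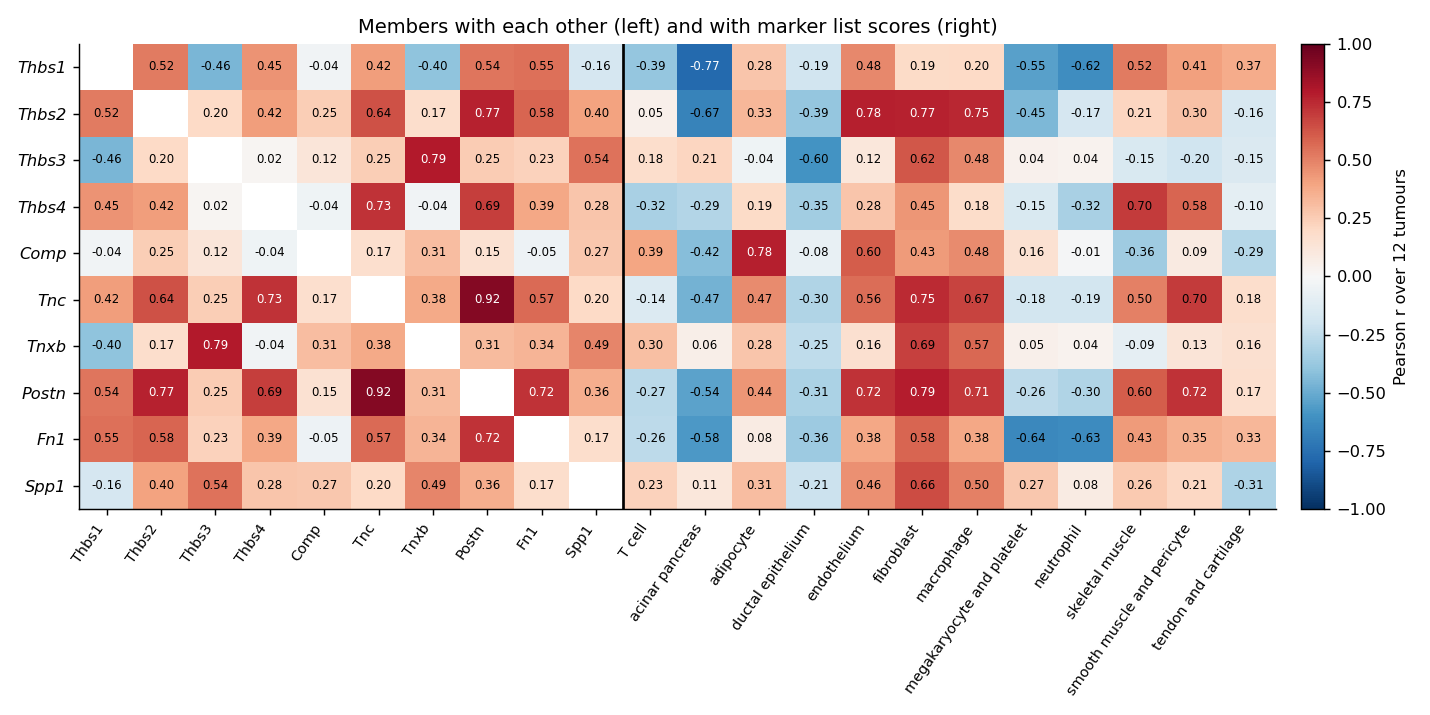
Pearson r over the 12 tumours (colour and printed value) between the 10 genes (rows) and the same genes (columns left of the line) and the scores of 12 marker lists (columns right of it). Tnc with Postn, at 0.92, is the strongest cell; Comp has its strongest value in the adipocyte column, at 0.78, and Thbs1 is blue for acinar pancreas, at -0.77.

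Because Tnc and Postn moved together, sequences before their RefSeq transcription starts are shown, in GRCm38.p6, with that of Thbs2, whose relations to them did not pass (r = 0.766 with Postn and 0.639 with Tnc, adjusted permutation p 0.082 and 0.165). Each is 250 bases long, read 5′ to 3′ along the gene's strand up to the start, with the letters TATAAA in capitals (TTTATA where they lie on the opposite strand).
Tnc, chr4:64047016-64047265, minus strand: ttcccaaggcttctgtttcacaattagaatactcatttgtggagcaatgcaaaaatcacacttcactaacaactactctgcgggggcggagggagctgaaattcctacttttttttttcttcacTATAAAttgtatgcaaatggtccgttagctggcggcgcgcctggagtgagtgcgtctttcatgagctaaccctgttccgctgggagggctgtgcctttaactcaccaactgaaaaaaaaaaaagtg
Postn, upstream start, chr3:54359017-54359266, plus strand: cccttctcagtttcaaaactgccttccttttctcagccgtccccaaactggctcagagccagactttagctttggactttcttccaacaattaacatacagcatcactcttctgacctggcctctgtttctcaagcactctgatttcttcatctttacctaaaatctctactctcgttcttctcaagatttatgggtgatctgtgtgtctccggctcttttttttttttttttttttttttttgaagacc
Postn, downstream start, chr3:54360857-54361106, plus strand: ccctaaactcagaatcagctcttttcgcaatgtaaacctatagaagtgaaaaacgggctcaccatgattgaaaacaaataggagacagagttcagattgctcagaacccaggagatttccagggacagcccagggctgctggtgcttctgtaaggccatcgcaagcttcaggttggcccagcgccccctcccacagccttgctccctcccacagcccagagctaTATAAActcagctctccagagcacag
Thbs2, chr17:14694263-14694512, minus strand: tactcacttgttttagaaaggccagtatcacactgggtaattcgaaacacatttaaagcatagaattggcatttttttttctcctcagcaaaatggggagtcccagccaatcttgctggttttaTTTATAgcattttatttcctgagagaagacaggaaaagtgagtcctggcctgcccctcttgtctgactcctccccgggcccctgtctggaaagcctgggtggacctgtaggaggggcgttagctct
The letters begin 26 bases before the downstream Postn start, 126 before the Tnc start shown and, on the opposite strand, 126 before the Thbs2 start, and the upstream Postn window lacks them. The table holds a second Tnc start, whose window, chr4:64046937-64047186, overlaps the one shown and has the same letters 205 bases before that start. Of the 10 genes, 7 had windows in the table, 10 windows in all, some of which overlap. TATAAA, searched on both strands as all motifs here, was in 5 of the 10 windows, of Postn, Spp1, Thbs2 and Tnc, against 12.4% of 32851 windows of all genes. GTCTG, the core letters bound by SMAD factors, was in 7 of 10 against 42.2%, and GGGCGG, bound by SP1, in 4 of 10 against 32.7%. TGANTCA, bound by AP-1, was in the Tnxb window alone, against 6.75% of all windows, and GGAATG, bound by TEAD factors, in that of Thbs4 alone, against 12.6%. TGTGGT, bound by RUNX factors, was in 1 window, of Spp1, against 14.0%, and the CArG box of SRF in 0 of 10 against 1.47%. None of these motifs contains another, and a match describes the letters only.

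Across 16850 named genes with a value on every array, those most like each of the 10 were as follows, by r over the 12 tumours. Each is the top of a search over 16850 values of r, and none was tested. With 12 tumours, a search of that size gives high values among unrelated genes too. The levels also share the array's scaling, so the list is a description. For Thbs1 they were Mindy2, a deubiquitinase (r = 0.951), and Flrt2, a membrane protein with a fibronectin type domain (0.950). For Thbs2 they were Adamts12, a metalloprotease with thrombospondin repeats (0.905), and the secreted Crispld2 (0.903). For Tnc they were Ssc5d, a secreted scavenger receptor protein (0.953), and Glipr2 (0.946), and for Postn Myl9, a regulatory light chain of smooth muscle myosin (0.943), and the receptor Mrgprf (0.921). Tnxb was most like Sfrp2, a secreted Wnt antagonist (0.914), and Pi16, a marker of adventitial fibroblasts (0.900). Thbs4 was most like Boc, a Hedgehog co-receptor (0.876), and Crhbp, which binds corticotropin-releasing hormone (0.873).

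Comp was most like Fgb, the beta chain of fibrinogen (0.872), and Apoc1, an apolipoprotein (0.838). For Fn1 the closest were Msn, the membrane linker moesin (0.901), and the phosphatase Dusp14 (0.874), the latter at 0.638 after quantile normalisation. For Thbs3 they were Eif4g3, a translation initiation factor (0.953), and the chaperone partner Cdc37 (0.950), the latter at 0.600 after quantile normalisation. For Spp1 they were Atox1, a copper chaperone (0.988), and annexin A2, Anxa2 (0.986). After quantile normalisation these values became 0.295 and 0.771, so the likeness of Spp1 with Atox1 depends on the scaling.

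Other genes of the pathway were read from the same fit, and 0 passed an adjusted p of 0.05 in limma in any list. Of 25 related matricellular genes, 22 were measured (not Ibsp, Dmp1 and Wisp3), with 10 above 0, 12 below 0 and a median of -0.05. At an unadjusted p under 0.05, 1 was higher and 0 lower. Over all genes 39.5% lay below 0, the median was 0.08, and 2.72% were higher and 2.08% lower at that p, which are the shares to read all 3 lists against. That gene, Smoc2, a SPARC family member that binds calcium, had means of 0.22 ± 0.40 in vehicle and 1.22 ± 0.36 (SD) in FAKi tumours, a difference of 0.998 (SE 0.25, limma p 0.001, adjusted p 0.762). Its groups did not overlap, as for 0.239% of all genes. Fbln1, a fibulin that binds fibronectin, differed by 0.85 (SE 0.41, limma p 0.060), and its level in 5 of the 6 FAKi tumours exceeded the vehicle mean.

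Of 22 receptor genes, 21 were measured (not Itgb8), with 10 above 0, 11 below 0, a median of -0.05 and 0 past an unadjusted p of 0.05. Cd36, the receptor of Thbs1 that is also a fatty acid transporter of fat and endothelial cells, was lower by a mean difference of -1.22 (SE 0.61, limma p 0.066), and 0 of 6 FAKi tumours lay above the vehicle mean. All 6 adipocyte markers and all 6 endothelial markers had lower FAKi means, with medians of -1.30 and -0.34 over the lists, and 0 passed adjustment. Whether fat or endothelial tissue bears on the Cd36 level was not tested. Itgb6, the beta chain of an epithelial integrin that binds fibronectin, differed by -1.60 (SE 0.93), but its probe was well above background on 4 vehicle and 2 FAKi arrays only. All 18 genes for enzymes that cut or bind these proteins were measured, 12 above 0 and 6 below 0, with a median of 0.11 and 1 in each direction past an unadjusted p of 0.05. Adamts1, a protease that releases anti-angiogenic fragments of Thbs1 and Thbs2, had means of 0.62 ± 0.71 in vehicle and -0.41 ± 0.55 (SD) in FAKi tumours, a difference of -1.03 (SE 0.35, limma p 0.011, adjusted p 0.964). Plat, tissue plasminogen activator, had means of 1.55 ± 0.45 and 2.19 ± 0.26 (SD), a difference of 0.64 (SE 0.24, limma p 0.020, adjusted p 0.999), and each of the 6 FAKi tumours exceeded the vehicle mean.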

How the data were processed

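The intensity values of each one-colour array, in the Cy5 channel, come from the authors' run of Agilent Feature Extraction 11.5.1.1, per the file headers; the headers of 11 of 12 arrays name the mouse build mm9, and the file of FAKi 6 names none. The software subtracted background, per the file headers. The deposited log2 table of the same arrays, 38569 probes with column medians of 10.71 to 10.90 and no centring per gene, matched each array (r of at least 0.9998 across probes); limma is named in the submitters' processing notes, and how the table was normalised is not given in those sources.

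Control and outlier spots were left out, spots of a probe were averaged as log2 processed signal, and each array's 75th percentile was subtracted. Probes well above background on at least 6 of 12 arrays were kept (40457 probes, 27351 genes, brightest probe per gene). Genes were named through the RefSeq accession for 32977 probes, a current symbol for 10222, a synonym for 520 and the array's own name for 12867. FAKi was compared with vehicle by limma 3.58.1 (R 4.3.3) with Benjamini-Hochberg adjustment over all genes; intervals are 95% intervals. Relations across tumours used permutation tests of 100000 resamples, adjusted over 165 relations, and exact ones within groups. Scripts were tested on simulated data. Promoter windows are RefSeq's, of GRCm38.p6. The genes, lists and tests were chosen with earlier results of these data known. All 10 genes are named with all their probes; from each list the 2 genes of smallest p, and for each gene its 2 nearest by r. Alternatives were quantile normalisation, median centring, normexp with an offset of 50, the authors' table, other filters and probe rules, array weights, slide or replicate blocks, and leaving out each tumour; removal of slide means was added after seeing the data. The slides held 3, 2, 3, 3 and 1 arrays. Only slides 1 and 4 held both groups. Slide 2 held only vehicle 1 and 4, slide 3 only FAKi 2, 3 and 4, and slide 5 only FAKi 6. On those, slide and group cannot be told apart, so the comparison of the groups is not balanced over slides. Precision is limited by the number of tumours. Between 71 and 156 spots per array were outliers and 0 were saturated, and no 2 arrays held identical values.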

Additional observations from a re-analysis of the deposited data

How the results depend on the processing

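Of the 10 genes, 0 passed an adjusted p of 0.05 in limma under every alternative run, the smallest adjusted p among them being 0.127 with array weights; over all genes the count was 0, except 4 with array weights and 3 without FAKi 1. At an unadjusted p under 0.05 the count over all genes, 1311 in the main setting, was 496 with slide as a fixed block, 5164 with array weights, 3773 without vehicle 6 and 763 without FAKi 4. The Postn difference, 0.02, was -0.038 after quantile normalisation, -0.018 after median centring, -0.047 after normexp correction, -0.037 in the authors' table and -0.047 with slide as a fixed block. Spp1 was at 0.049 with array weights, and Tnxb at -0.40 with slide as a fixed block. Differences with that block draw on slides 1 and 4 alone, the only ones with both groups. Within slide 1 (vehicle 3 and 5, FAKi 5) the differences were -1.73 for Thbs1, -1.08 for Thbs4, -0.20 for Tnc, -0.62 for Postn, -0.45 for Fn1, 0.0035 for Spp1, 0.50 for Thbs3 and 0.59 for Tnxb. Within slide 4 (vehicle 2 and 6, FAKi 1) they were 0.80 for Thbs1, 0.29 for Thbs2, -0.47 for Thbs3, 2.51 for Thbs4, 0.48 for Comp, 0.81 for Tnc, -1.38 for Tnxb and -0.99 for Spp1; these have 1 FAKi array and no test. Leaving out each tumour in turn gave -0.14 to 0.18 for Postn, -0.13 to 0.042 for Fn1, -0.36 to 0.10 for Spp1 and -0.11 to 0.78 for Thbs4, and kept the direction of Thbs1 (-1.21 to -0.73), Thbs2 (-0.45 to -0.092), Thbs3 (0.42 to 0.81), Comp (-0.81 to -0.061), Tnc (0.037 to 0.32) and Tnxb (0.26 to 0.95), each of which but Thbs1 and Thbs3 moved by over 1.5 times with 1 tumour left out. The causes were not tested. The number of relations past an adjusted permutation p of 0.05 was 1, became 8 after quantile normalisation and ran from 0 to 4 with a tumour left out. The 8 were Tnc with Postn (r = 0.924), Fn1 with the megakaryocyte and platelet score (-0.858, adjusted permutation p 0.030), Thbs3 with the ductal score (-0.834, adjusted permutation p 0.030) and, each at 0.0499, Comp with the adipocyte, Tnc and Postn with the fibroblast and Thbs1 with the acinar score and Thbs2 with Postn. In the main setting Fn1 with the platelet score had r = -0.643 (adjusted permutation p 0.165). Thbs3 with the ductal score had r = -0.600 there (adjusted permutation p 0.206).

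The labels do not say whether replicate numbers pair the tumours. Same-numbered tumours deviated together at r from -0.12 to 0.48, and 2 of 6 vehicle tumours were closest to the FAKi tumour of their own number. So few values cannot settle whether the tumours were paired. A replicate block cannot change a difference here, with 1 tumour of each group per number (Thbs1 -0.92); with it 0 of the 10 genes passed adjustment, Thbs1 and Thbs3 had an unadjusted p under 0.05 in limma, and 1666 genes did over all.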
